A study of Mus musculus with 8 samples.

Results

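The 9 genes described here encode the core of the Hedgehog signalling pathway. They are the receptor gene Ptch1, the decoy receptor gene Hhip, the co-receptor genes Gas1, Cdon and Boc, the signal transducer gene Smo, and the transcription factor genes Gli1, Gli2 and Gli3. They were taken by symbol from the authors' deposited comparison of 17441 genes, in which all 9 are present. RNA had been sequenced from primary mouse embryonic fibroblasts, the adherent mesenchymal cells that grow out of dissociated embryos, taken at embryonic day 18 and grown to passage 2. The Cbx2-/- group held 2 libraries from embryos that lack Cbx2, a chromodomain subunit of polycomb repressive complex 1, and the wild-type group held 2 libraries from littermates. Both genotypes were grown in the same medium, with no Hedgehog ligand or pathway drug named in the labels. Each library was made from 200000 cells on a DNBseq platform at about 4.62 Gb, and chromatin accessibility, profiled in the same design, is not analysed here. Neither the strain nor the extent of the Cbx2 deletion is given in the sources used here, and the labels do not say whether each library came from its own embryo.

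Hedgehog proteins are secreted signals that pattern the limb, the skeleton and the neural tube. Without ligand, PTCH1 holds SMO inactive, and GLI3 and GLI2 are cut into repressors at the base of the primary cilium. Once ligand binds PTCH1 together with GAS1, CDON or BOC, SMO enters the cilium, GLI proteins stay whole, and Gli1, Ptch1 and Hhip are themselves transcribed as targets of the pathway.

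The authors' deposited table gives 1 normalised value per genotype, a log2 fold change of knockout over wild type, and a p adjusted over all genes from DESeq2. From its decimals, the whole reads of each library could be recovered for 17186 genes (98.5%), among them all 9 pathway genes. The recovered reads summed to 14942370 and 14959985 in the knockout libraries A and B and to 13750674 and 14743032 in the wild-type libraries A and B. The letters only tell the libraries of a genotype apart. Normalised reads are recovered reads divided by the size factor of their library. Cbx2, the targeted gene, had 25 and 27 recovered reads in the knockout libraries, against 355 and 324 in the wild-type libraries, and its log2 fold change in the authors' deposited table was -3.58 (DESeq2 adjusted p = 2.55e-44).

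Of the 9 pathway genes, 2 passed the authors' test and both fell in knockout cells. In mean normalised reads, Cdon fell by 26.3% and Smo fell by 11.8%. Of all genes in the authors' deposited table, 7.78% passed at a DESeq2 adjusted p below 0.05, with 3.48% higher and 4.30% lower in knockout. Scaling both genotypes to the same sum turned the 607 higher and 750 lower genes into 763 higher and 566 lower, and left Hhip (higher) and Cdon (lower) as the pathway genes past the test. Among genes with a value at or above the median, 11.8% passed (7.10% lower), and 7 of the pathway genes lie in that range, of which Cdon and Smo passed. When p was adjusted over that range alone, 3 of the 7 passed, all lower, with Gas1 added (DESeq2 adjusted p = 0.0432). With 10% added spread between libraries, 0 of the 9 passed. Hhip and Gas1 lay just short of the threshold, and both passed when the recovered reads were tested with limma voom, which called 25.0% of 12960 genes (12.2% higher and 12.7% lower). By that test, 4 of the 8 pathway genes with enough reads passed, with Hhip higher and Gas1, Cdon and Smo lower in knockout. Ptch1, Boc, Gli2 and Gli3 passed neither test, and Gli1 had too few reads for limma voom and did not pass the authors' test.

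**Figure D1:**
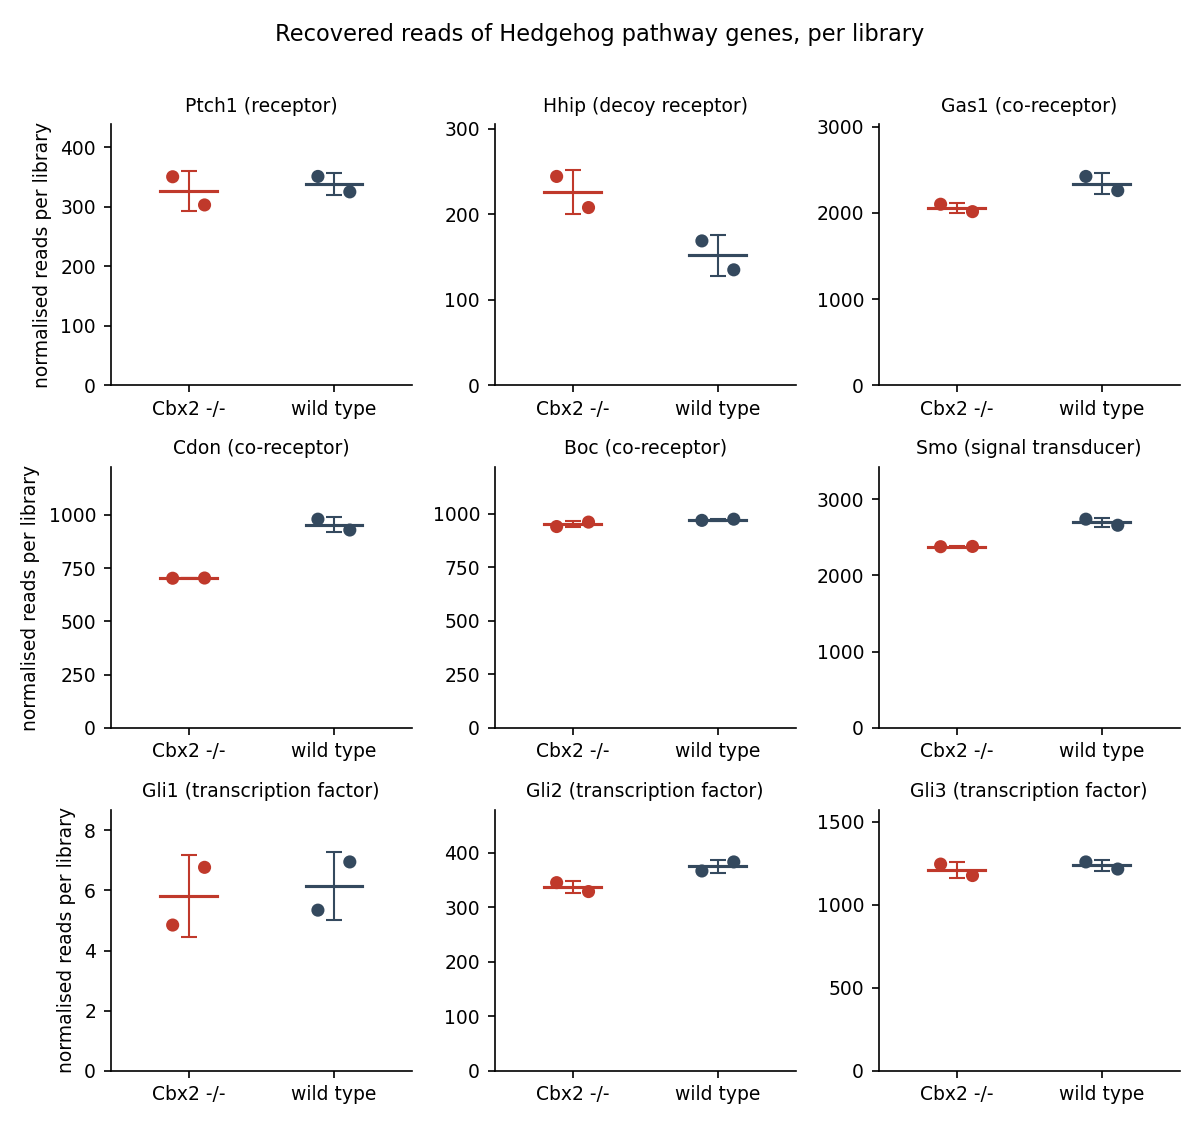
Normalised reads of the 9 Hedgehog pathway genes in each library, with knockout libraries (red) left of wild-type libraries (dark blue). Each point is a library, horizontal bars are means and error bars are SD (n = 2 per genotype), and each vertical axis starts at 0. The points of Cdon, Smo and Gas1 lie lower in knockout than in wild type and those of Hhip higher, while those of Ptch1, Gli1 and Gli3 overlap.

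The receptor gene Ptch1 (gene 19206, chr13:63508328-63573460 in mm10) encodes the protein that binds Hedgehog ligand and restrains SMO. It had 361 and 313 recovered reads in the knockout libraries, which is 350.1 and 302.8 normalised reads, against 328 and 327 recovered reads, or 350.6 and 324.7 normalised reads, in the wild-type libraries. The genotypes overlapped, and the knockout pair spanned a wider range than the wild-type pair. The authors' deposited table gives a log2 fold change of -0.05 with an implied standard error of 0.15 (95% interval -0.34 to 0.25, DESeq2 adjusted p = 0.973).

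Hhip (gene 15245, chr8:79965850-80058060) encodes a membrane protein that binds Hedgehog ligand and keeps it from PTCH1. It had 252 and 215 recovered reads in knockout, or 244.4 and 208 normalised reads, against 158 and 136 recovered reads, or 168.9 and 135 normalised reads, in wild type. Both knockout libraries were above both wild-type libraries, by 48.8% on average, the largest relative difference among the 9 genes. The authors' deposited table gives a log2 fold change of 0.56 (standard error 0.20, 95% interval 0.16 to 0.95), and the DESeq2 adjusted p was 0.0646. With limma voom the log2 fold change was 0.58 and the adjusted p 0.000185, which became 0.0538 in limma voom without wild-type library B, so the call of Hhip rests on the choice of test and on that library.

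Ptch1 and Hhip are both transcribed in response to the pathway. Per length, the ratio of Hhip to Ptch1 was 0.562 and 0.553 in the knockout libraries, against 0.388 and 0.335 in the wild-type libraries. The ratio was higher in both knockout libraries than in either wild-type library. It is a ratio within a library and does not depend on how libraries were scaled. How often the ratio of other gene pairs separates the genotypes was not tested, here or for the ratios below.

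Of the 3 co-receptor genes, Cdon alone passed the authors' test. Cdon (gene 57810, chr9:35421528-35507652) encodes an immunoglobulin superfamily protein that binds Hedgehog ligand at the cell surface. It had 724 and 727 recovered reads in knockout, or 702.1 and 703.2 normalised reads, against 916 and 935 recovered reads, or 979.3 and 928.4 normalised reads, in wild type. The knockout libraries were nearly equal and both lay below the wild-type libraries, by more than the spread within either genotype. The authors' deposited table gives a log2 fold change of -0.44 (standard error 0.10, 95% interval -0.63 to -0.25, DESeq2 adjusted p = 0.000183), and limma voom an adjusted p of 3.14e-08. With 10% added spread between libraries its adjusted p was 0.29 from the deposited DESeq2 errors, which ends the call.

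Boc (gene 117606, chr16:44485045-44558870), the paralogue of Cdon, had 969 and 993 recovered reads in knockout, or 939.8 and 960.5 normalised reads, against 906 and 981 recovered reads, or 968.6 and 974.1 normalised reads, in wild type. Both knockout libraries lay below both wild-type libraries. The nearest libraries of the genotypes were closer to each other than the knockout libraries were. The authors' deposited log2 fold change, from the same table, was -0.03 (standard error 0.09, 95% interval -0.21 to 0.14, DESeq2 adjusted p = 0.968), so a change of Boc as large as that of Cdon lies outside the interval. Scaling both genotypes to the same sum moved this value to 0.01, on the other side of 0. Per length, Boc was 2.19 and 2.23 times Cdon in the knockout libraries, against 1.62 and 1.71 times in the wild-type libraries, and the ranges did not overlap. Mean normalised reads differed by -2.2% for Boc and -26.3% for Cdon, so this ratio mostly repeats the fall of Cdon.

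Gas1 (gene 14451, chr13:60174405-60177535) encodes a lipid-anchored surface protein that helps PTCH1 bind ligand. It had 2166 and 2083 recovered reads in knockout, or 2101 and 2015 normalised reads, against 2267 and 2275 recovered reads, or 2424 and 2259 normalised reads, in wild type. Both knockout libraries lay below both wild-type libraries, and the mean differed by -12.1%. The log2 fold change in the authors' deposited table was -0.19 (standard error 0.07, 95% interval -0.32 to -0.05), with a DESeq2 adjusted p of 0.0654. Limma voom gave an adjusted p of 0.00135, and up to 0.0957 with 1 library left out: the call was lost without knockout library B and without wild-type library A.

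Smo (gene 319757, chr6:29735497-29761366) encodes the membrane protein through which the signal enters the cell. It had 2449 and 2459 recovered reads in knockout, or 2375 and 2379 normalised reads, against 2559 and 2675 recovered reads, or 2736 and 2656 normalised reads, in wild type. The knockout libraries were close to each other and both below the wild-type libraries. The authors' deposited table lists a log2 fold change of -0.18 (standard error 0.06, 95% interval -0.30 to -0.06, DESeq2 adjusted p = 0.0370), and the limma voom adjusted p was 0.000838. The call was lost when both genotypes were scaled to the same sum (log2 fold change -0.14, adjusted p = 0.167 from the deposited DESeq2 errors).

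Among the transcription factor genes none passed. Gli1 (gene 14632, chr10:127329882-127341579), an activator and a widely used readout of active signalling, had 5 and 7 recovered reads in knockout and the same 5 and 7 in wild type. At this depth its 95% interval on the log2 scale ran from -1.11 to 1.02 by the authors' deposited table (log2 fold change -0.04, DESeq2 adjusted p = 0.997), so a 2-fold change in either direction could not be told from none. The gene also overlaps Arhgap9 at one end, so that reads there could belong to either gene. All other members except Ptch1 and Gas1 overlap an annotated non-coding gene or pseudogene that is not among the genes tested, with the same uncertainty.

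Gli2 (gene 14633, chr1:118834061-119054405), the main activator in response to ligand, had 356 and 340 recovered reads in knockout, or 345.3 and 328.9 normalised reads, against 343 and 386 recovered reads, or 366.7 and 383.3 normalised reads, in wild type. Both knockout libraries were below both wild-type libraries. The log2 fold change in the authors' deposited table was -0.15 (standard error 0.14, 95% interval -0.43 to 0.13, DESeq2 adjusted p = 0.867), and limma voom gave an adjusted p of 0.204. A fall of Gli2 of the size seen for Smo lies inside that interval.

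Gli3 (gene 14634, chr13:15463723-15730026), the main source of the pathway's repressor, had 1284 and 1216 recovered reads in knockout, or 1245 and 1176 normalised reads, against 1177 and 1224 recovered reads, or 1258 and 1215 normalised reads, in wild type. The genotypes overlapped. In the authors' deposited table the log2 fold change was -0.03 (standard error 0.08, 95% interval -0.19 to 0.13, DESeq2 adjusted p = 0.966), and scaling both genotypes to the same sum moved it to 0.01. RNA levels do not show how much GLI3 protein was cut into repressor.

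**Figure D2:**
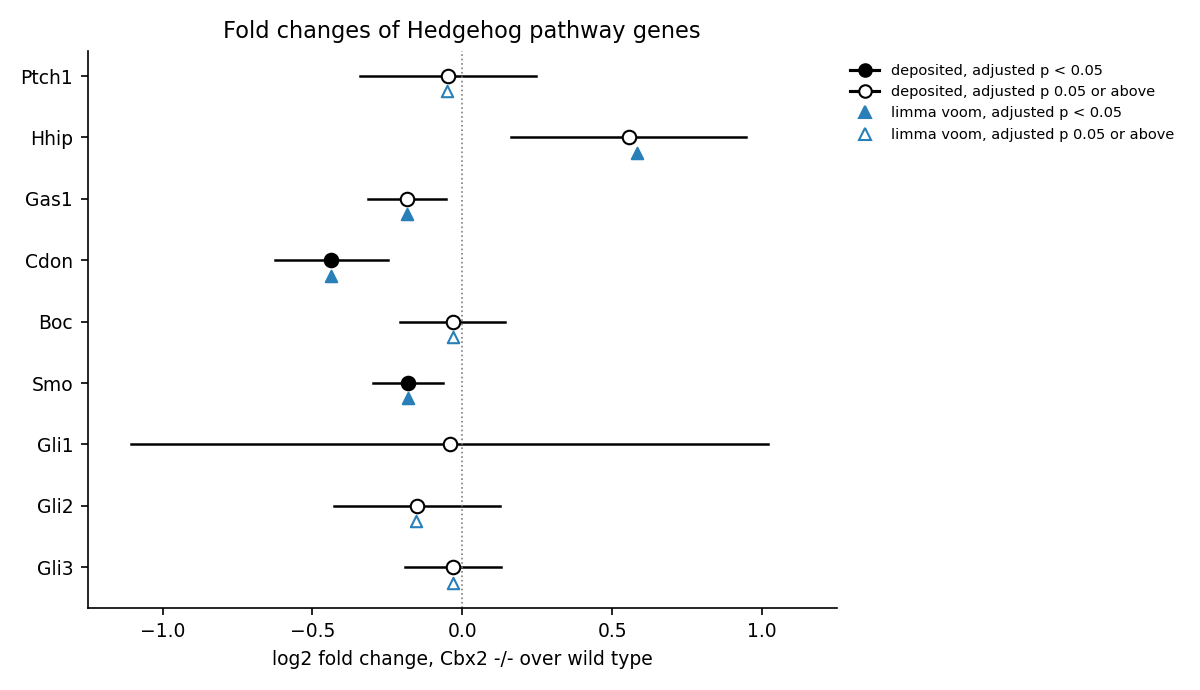
Log2 fold changes of the 9 genes, Cbx2-/- over wild type (horizontal axis). Circles are values of the authors' deposited table with 95% intervals implied by its p-values, triangles are limma voom on recovered reads, and filled symbols have an adjusted p below 0.05; Gli1 has no triangle because its reads were too few. Cdon and Smo are filled by both tests and Hhip and Gas1 by limma voom.

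The reads of the genotypes did not overlap in 6 of the 9 genes, against 52.0% of the 17186 genes with recovered reads and 60.0% of those at or above the median value. That share is near the background. Over the 9 genes the median deposited log2 fold change was -0.05, against 0.00 over all genes. With 2 libraries per genotype, p-values measure only the spread between these libraries.

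Read per kilobase of listed gene length, the 9 genes kept the same order in both genotypes. Gas1 was highest, with 653.5 ± 19.3 normalised reads per kilobase in knockout and 743.5 ± 36.9 in wild type (SD, n = 2 each). Smo followed with 597.6 ± 0.607 in knockout and 677.9 ± 14.1 in wild type. Both gene products act upstream of the GLI proteins.

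Boc had 214.6 ± 3.31 normalised reads per kilobase in knockout and 219.4 ± 0.887 in wild type, Gli3 had 143.7 ± 5.79 in knockout and 146.8 ± 3.60 in wild type, and Cdon had 97.1 ± 0.103 in knockout and 131.8 ± 4.97 in wild type (SD, n = 2 each). Gli2 had 50.2 ± 1.73 in knockout and 55.9 ± 1.75 in wild type, and Ptch1 had 44.6 ± 4.57 in knockout and 46.1 ± 2.51 in wild type. Hhip had 24.9 ± 2.83 in knockout and 16.7 ± 2.63 in wild type. Gli1 was lowest, with 1.59 ± 0.371 in knockout and 1.68 ± 0.310 in wild type. No pair of neighbours in this order overlapped in its libraries in either genotype, the nearest being Gli2 and Ptch1 in knockout cells, with 49.0 in the lower Gli2 library and 47.8 in the higher Ptch1 library.

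The repressor source was more abundant than the activator among the GLI transcripts. Per length, Gli3 was 2.87 and 2.85 times Gli2 in the knockout libraries, against 2.73 and 2.52 times in the wild-type libraries. Smo was 12.5 and 14.5 times Ptch1 in knockout, against 14.4 and 15.1 times in wild type, and these ranges overlapped.

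**Figure D3:**
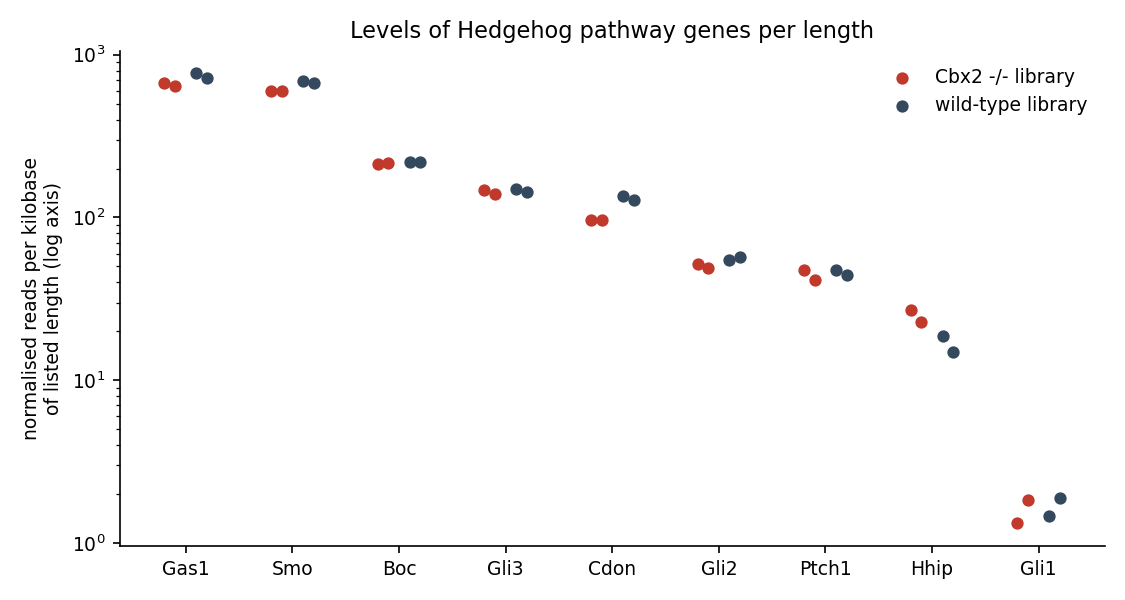
Normalised reads per kilobase of listed gene length (log axis) for the 9 genes, ordered from highest to lowest, with knockout libraries (red) left of wild-type libraries (dark blue). Each point is a library. Gas1 and Smo lie near the top in both genotypes and Gli1, with 1.59 in knockout and 1.68 in wild type on average, lies at the bottom.

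The start regions of 3 members whose fold change interval excluded 0 are shown because they differ in their density of CpG, the dinucleotide that marks the CpG islands on which polycomb complexes often sit. Sequences are from RefSeq (GRCm38.p6, the mm10 build), 5′ to 3′ on the strand of the gene, ending at the annotated gene start, with each CpG in capitals. They cover chr6:29735247-29735496 for Smo (plus strand), chr13:60177536-60177785 for Gas1 (minus strand) and chr8:80058061-80058258 for Hhip (minus strand).
Smo: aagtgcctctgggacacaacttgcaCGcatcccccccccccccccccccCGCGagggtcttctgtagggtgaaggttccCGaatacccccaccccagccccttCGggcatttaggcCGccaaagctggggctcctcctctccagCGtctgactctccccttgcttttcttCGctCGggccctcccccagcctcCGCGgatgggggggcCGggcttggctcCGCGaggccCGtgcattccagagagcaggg
Gas1: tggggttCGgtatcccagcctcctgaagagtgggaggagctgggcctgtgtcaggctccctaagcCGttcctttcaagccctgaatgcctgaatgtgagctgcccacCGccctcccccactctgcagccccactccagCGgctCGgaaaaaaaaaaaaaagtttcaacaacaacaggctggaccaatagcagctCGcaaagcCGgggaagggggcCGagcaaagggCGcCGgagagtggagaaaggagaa
Hhip: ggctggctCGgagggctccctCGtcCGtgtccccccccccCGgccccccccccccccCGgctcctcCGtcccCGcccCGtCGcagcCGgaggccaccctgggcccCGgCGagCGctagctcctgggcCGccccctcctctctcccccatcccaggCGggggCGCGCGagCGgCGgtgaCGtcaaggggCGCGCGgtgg
These stretches hold 15 CpG in 250 bases at Smo, 10 in 250 bases at Gas1 and 24 in 198 bases at Hhip. RefSeq start regions were matched for 7 of the 9 members, all but Gli1 and Boc. In the 250 bases before their listed starts the 7 members had a median of 22 CpG and ranged from 1 at Cdon to 41 at Ptch1. Over all 32851 listed RefSeq promoters the median was 6. That set is not limited to the 17441 genes tested, so it is not a comparison with genes of like expression. The listed start lies 30548 bases inside the gene at Cdon, 7725 bases inside at Ptch1 and 786 bases inside at Gli2, so those values, the median of 22 at Gli2 among them, describe inner starts and their letters are not shown. The Gli binding motif GACCACCCA, searched on both strands (TGGGTGGTC on the other), was present in 0 of the 7 member regions and in 0.225% of all promoters. With so low a share, 0 of 7 is the usual outcome for any genes. The search therefore cannot tell whether the members hold Gli sites.

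The nearest genes of the table on each side of Cdon and Smo did not pass the test. Around Cdon these were 4933422A05Rik, 136 kb before it (DESeq2 adjusted p = 0.931 in the authors' deposited table), and Ddx25, 34.2 kb after it (log2 fold change 1.01, DESeq2 adjusted p = 0.315). Around Smo they were Tspan33, 16.9 kb before it (log2 fold change -0.26, DESeq2 adjusted p = 0.931 in the authors' deposited table), and Ahcyl2, 7.01 kb after it (log2 fold change 0.21, DESeq2 adjusted p = 0.458). All 4 had lower values than Cdon and Smo, from 0.251 in knockout and 0.233 in wild type at 4933422A05Rik to 532.3 in knockout and 459 in wild type at Ahcyl2, in the deposited values of the authors' table.

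Beyond the 9 genes, 6 lists of Hedgehog-related genes held 170 genes of the table. By the authors' test, 11 rose and 14 fell (14.7%, against 7.78% of all genes). Of the 170, 103 lie at or above the median value, a range in which 11.8% of all genes passed. Scaling both genotypes to the same sum turned the 11 higher and 14 lower to 15 higher and 12 lower. The calls were spread unevenly over the lists.

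Of 8 ligand and ligand release genes, 0 passed the authors' test. Their median log2 fold change was 0.15, against 0.00 over all genes. Ihh had 1 and 1 recovered reads in knockout and 2 and 0 in wild type, and Dhh had 10 and 15 in knockout against 1 and 7 in wild type, so both ligand transcripts were scarce. Dhh had a log2 fold change of 0.83 in the authors' deposited table with a DESeq2 adjusted p of 0.589. Limma voom called 2 of the 6 ligand and release genes it tested, Dhh (adjusted p = 0.00956) and Hhat (adjusted p = 0.0340). It called 0 without its read filter, and the calls also depended on which libraries were kept. Dhh met that filter, 10 or more reads in at least 2 libraries, only through the knockout libraries. Its call by limma voom is therefore no evidence of a rise. Shh is not analysed here.

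Of 10 further receptors and surface proteins, 2 rose and 1 fell (30%, against 7.78% of all genes). All 3 are glypicans, proteoglycans anchored in the membrane that bind Hedgehog and other ligands. Gpc3, which competes with PTCH1 for ligand, had 580.9 and 562 normalised reads in knockout, against 304.7 and 309.8 in wild type, and rose by 0.88 (authors' deposited table, log2 scale, DESeq2 adjusted p = 7.42e-10). Gpc1 rose by 0.26 in the authors' deposited table (DESeq2 adjusted p = 8.77e-07), and Gpc6 fell by 0.35 (DESeq2 adjusted p = 0.000781). The list's median was -0.04.

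Of 38 intracellular regulators, 2 rose and 1 fell (7.89%, near the 7.78% of all genes), with a median log2 fold change of -0.01. Pkia, an inhibitor of protein kinase A, the kinase that primes GLI proteins for cutting, had 249.2 and 254.4 normalised reads in knockout, against 137.9 and 131.1 in wild type (log2 fold change 0.88 in the authors' deposited table, DESeq2 adjusted p = 0.000116). Smurf2, a ubiquitin ligase, rose by 0.19 (DESeq2 adjusted p = 0.0413), and Spop, the adaptor that brings full-length GLI proteins to degradation, fell by 0.20 (DESeq2 adjusted p = 0.0205). Sufu, which holds GLI proteins in the cytoplasm, had 1038 and 962 recovered reads in knockout, against 878 and 1002 in wild type, and a log2 fold change of 0.00 in the authors' deposited table. Sufu was named for its role after its values were seen.

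Of 57 genes of the primary cilium, the organelle in which the pathway runs, 0 passed the authors' test. Limma voom called 4 of the 55 it tested (1 higher and 3 lower), against its background of 25.0%. The cilium genes had a median log2 fold change of 0.02 and a range of -0.43 to 0.44, as listed by the authors' deposited table.

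Of 28 genes proposed as targets of GLI proteins, 6 rose and 1 fell (25%, against 7.78% of all genes). Their median log2 fold change was 0.08. When 10% spread between libraries was added, 0 of the 28 passed, and 0 met the authors' own call with its 2-fold minimum. Bmp4, a secreted growth factor, had 292.9 and 279.5 normalised reads in knockout, against 186 and 159.9 in wild type (log2 fold change 0.71 in the authors' deposited table, DESeq2 adjusted p = 0.00152). Nr2f1, a nuclear receptor, rose by 0.50 (DESeq2 adjusted p = 0.00527), Foxc2, a forkhead factor, rose by 0.48 (DESeq2 adjusted p = 8.05e-06), and Igfbp6, which binds insulin-like growth factors, rose by 0.43 (DESeq2 adjusted p = 2.59e-08).
Ccnd1, a cyclin of the G1 phase, rose by 0.17 (DESeq2 adjusted p = 0.000980). Snai1, a repressor of epithelial genes, fell by 0.22 (DESeq2 adjusted p = 0.000402). Most of these genes answer to other signals as well, and the pathway's own targets, Ptch1, Hhip and Gli1, are described above with the members.

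Of 29 genes of the limb network around Shh and Gli3, 11 fell and 1 rose (41.4% passed, against 7.78% of all genes). The list's median log2 fold change was -0.29. Shox2, a homeobox gene of proximal limb bones, had 409.3 and 380.1 normalised reads in knockout, against 1135 and 1203 in wild type (log2 fold change -1.55 in the authors' deposited table, DESeq2 adjusted p = 3.74e-47). Hand2, a basic helix-loop-helix gene that activates Shh in the posterior limb bud, had 66.9 and 66.7 normalised reads in knockout, against 237.3 and 278 in wild type (log2 fold change -1.86 in the authors' deposited table, DESeq2 adjusted p = 1.68e-15). In both genes the knockout libraries lay far below the wild-type libraries.

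Hoxa11, a homeobox gene of the middle limb segment, fell by 0.78 (DESeq2 adjusted p = 4.54e-05), Tbx3, a T-box gene of the limb margins, fell by 0.47 (DESeq2 adjusted p = 4.10e-06) and Jag1, a Notch ligand, fell by 0.41 (DESeq2 adjusted p = 0.000222), all in the authors' deposited table. Grem1, the BMP antagonist that links Shh to the limb's signalling ridge, had 1897 and 1858 normalised reads in knockout, against 2370 and 2211 in wild type, and fell by 0.29 (DESeq2 adjusted p = 0.000587). The gene that rose was Msx2, a homeobox gene induced by BMP (log2 fold change 0.79 in the authors' deposited table, DESeq2 adjusted p = 0.00649). The 95% intervals of Gli3, Ptch1 and Gli1 include 0, and that of Gli1 was wide, from -1.11 to 1.02. Polycomb complexes act on many limb patterning genes. Whether these falls have to do with Hedgehog signalling or with polycomb action at these genes was not tested.

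**Figure D4:**
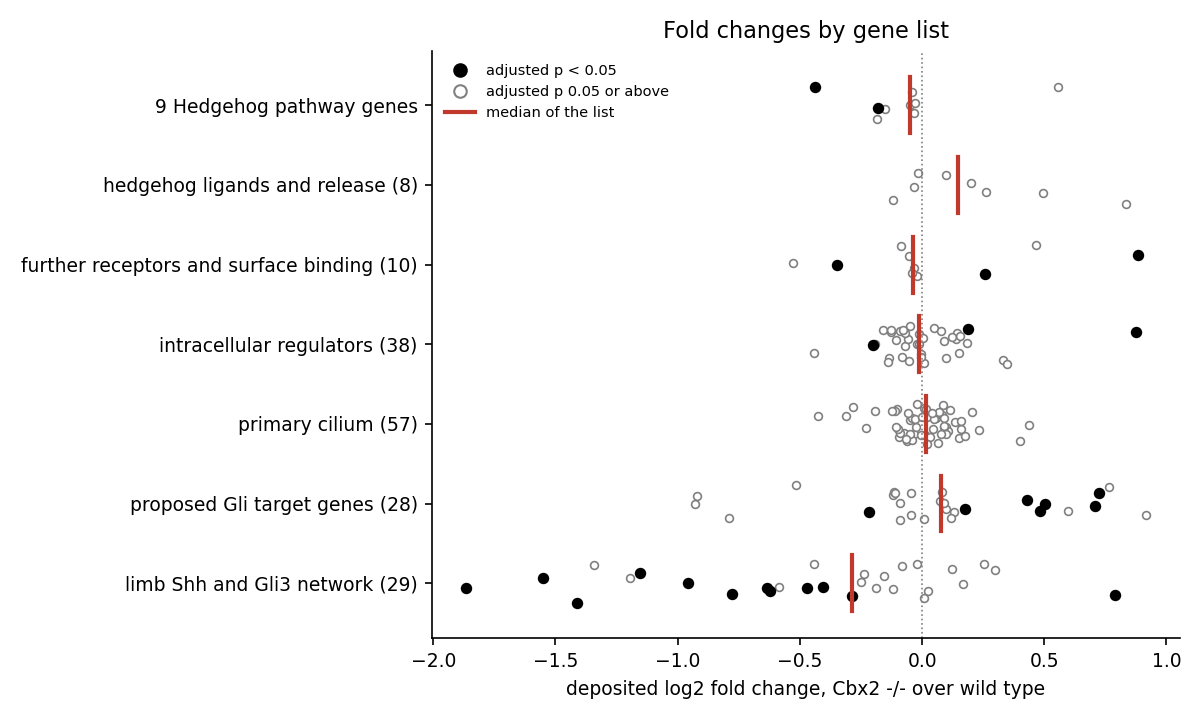
Deposited log2 fold changes, Cbx2-/- over wild type (horizontal axis), of the 9 members and of 6 wider lists, with the number of genes in the table in brackets. Each point is a gene, filled where the DESeq2 adjusted p is below 0.05, and red bars are list medians. Filled points lie mostly left of 0 in the limb list (11 lower, 1 higher) and mostly right of 0 among proposed Gli targets (6 higher, 1 lower), and the cilium list has 0 filled points.

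In the annotation given with the table, 95 genes carry a process term that contains the words smoothened signaling pathway, 7 of the 9 members among them. The match would also take in longer terms with those words, such as terms for regulation of the pathway. Of these 95, 3 rose and 5 fell (8.42%, near the background of 7.78%), with a median log2 fold change of -0.01. Those that rose were Zic1, a zinc finger factor related to the GLI proteins (log2 fold change 1.16 in the authors' deposited table, DESeq2 adjusted p = 3.81e-35), Gpc3 and Prrx2 (log2 fold change 0.26, DESeq2 adjusted p = 0.000997). Those that fell were Shox2, Smo, Prrx1, Por and Nsdhl. Nsdhl and Por, enzymes of sterol synthesis, fell by 0.57 (DESeq2 adjusted p = 2.92e-07) and 0.20 (DESeq2 adjusted p = 0.00537) in the authors' deposited table. This set was looked up after the member values were seen.

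Markers of cell types moved with genotype as well. Beside their counts, 3.48% of all genes passed as higher and 4.30% as lower in knockout. In bulk RNA, fewer cells of a type and less RNA per cell cannot be told apart. Of 19 fibroblast markers, all present in the table, 12 fell and 1 rose, and their deposited values summed to 773385 in knockout and 882898 in wild type. Col1a2, a collagen chain, had 106979 in knockout and 130560 in wild type in the authors' deposited table, so fibroblast transcripts were abundant in both genotypes. Of 17 macrophage markers, 12 rose and 0 fell, and their normalised reads summed to between 2123 and 2130 in the knockout libraries, against 632.5 to 720.5 in the wild-type libraries. Lyz2, the macrophage lysozyme gene, made up much of that sum, with 958.2 and 944.1 in knockout against 143.3 and 145 in wild type. The rise was not shared by all 17 markers. Csf1r had 234.7 and 279.5 in knockout against 256.6 and 232.4 in wild type, and the genotypes overlapped. The deposited log2 fold changes of Aif1 (-0.38) and C1qb (-0.57) lay below 0, on few reads, and neither passed. No macrophage marker was at 0 in all libraries of a genotype.

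Of 12 endothelial markers, 2 rose and 1 fell (sums 1992 to 2026 in knockout, 1672 to 1703 in wild type), with Emcn at 0 in knockout and Vwf at 0 in wild type. Of 12 epithelial markers, 0 rose and 2 fell, namely Krt8 and Krt18 (sums 267.7 to 271.8 in knockout, 551.1 to 583.7 in wild type), with Grhl2 at 0 in knockout and Cldn3 at 0 in wild type. These sums rest mostly on Krt8, Krt18 and Krt19, of which Krt19 did not pass (log2 fold change -0.10). Epcam had 1 and 3 recovered reads in either genotype, and Cdh1 had 1 and 4 in knockout against 1 and 2 in wild type. Of 14 cartilage and bone markers, 2 rose and 2 fell (sums 3697 to 3759 in knockout, 3549 to 3768 in wild type), with Col9a1 and Bglap at 0 in knockout. Of 10 muscle markers, 0 rose and 3 fell (sums over the 8 with recovered reads 15835 to 15945 in knockout, 19517 to 19576 in wild type), with Myod1 at 0 in knockout and Ckm at 0 in wild type. Of 11 neural and glial markers, 1 rose and 1 fell (sums 6305 to 6397 in knockout, 4718 to 4725 in wild type). Pax6 was at 0 in knockout and Gfap and Olig2 were at 0 in wild type. Each marker named as at 0 in a genotype had at most 3 recovered reads in any library of the other. A value of 0 there does not show absence. Of 7 adipocyte markers, 0 rose and 2 fell (sums 1817 to 1937 in knockout, 3307 to 3316 in wild type). The part of these shifts in the values of Cdon, Smo, Gas1 and Hhip was not tested.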

How the data were processed

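The authors deposited 1 table for RNA from 2 knockout and 2 wild-type libraries, grouped by the genotype in the labels. Its values are a normalised signal of reads, deposited for each genotype as a single number, and a log2 fold change of knockout over wild type as deposited by the authors. The p-value and adjusted p columns were deposited from the authors' DESeq2 comparison, and a Benjamini-Hochberg adjustment of the unadjusted p over the 17441 genes gave the adjusted values within 1.33e-06. HISAT2, Bowtie2, RSEM and DESeq2 with mm10 are named in the submitters' processing notes. Their versions and roles, the strand and the filters are not stated in those sources. The deposited fold changes are shrunken toward 0 where reads are few.

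The planned test for counts could not be used on values per genotype, and the authors' own test took its place, as the plan foresaw. A gene passed where its deposited adjusted p was below 0.05. Standard errors and 95% intervals were implied from the deposited fold change and p. Whole reads per library were recovered by finding reads that give the mean of the deposited columns. At a mean of 30 or above they also had to give the deposited fold change through the authors' fit, with a prior SD of 0.768. The tolerance there was 2e-08 plus an allowance for the rounding of the deposited p. For the 5548 genes with a mean below 30, Gli1, Ihh and Dhh among them, only the mean was matched. Exactly 1 set was found for 98.5% of genes, shifted values below a mean of 3000 had a set in 0% of cases, and in a test on simulated data 99.2% of 781 came out right. Another 162 genes were tried without exactly 1 set, and 93 genes with a mean at or above 20000 were not tried. Size factors were 1.03 and 1.03 for knockout and 0.935 and 1.01 for wild type. Recovered reads were tested with limma voom (limma 3.58.1, R 4.3.3; genes with 10 or more reads in at least 2 libraries), an alternative chosen after seeing the data. On 12930 genes simulated for knockout versus wild type it found 67 of 100 genes changed 1.5-fold and 93 of 100 changed 2-fold, and 10 of its 170 calls were unchanged genes. Other steps used Python 3.11.15, numpy 2.4.6, scipy 1.17.1 and pandas 2.3.3.

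All 9 members were named whatever their value, with Cbx2, up to 6 passing genes of each wider list by adjusted p, and the nearest table gene on each side of a passing member. Ihh, Dhh, Hhat, Msx2, Sufu, Col1a2, Csf1r, Aif1, C1qb, Epcam, Cdh1, Krt19 and Arhgap9 were named after their values were seen. So were the markers at 0 and the genes of the annotated Smo set, where the rule does not take them. The members and all lists were chosen with earlier results of these data known, so their counts are descriptions. Gene positions are from RefSeq GRCm38.p6, matched by gene number for 17400 genes. Of 176 genes in the wider lists, 170 were in the table. Alternatives were the genes over which p was adjusted, the threshold, added spread, a minimum fold, the scaling, the pseudocount and leaving out each library.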

Additional observations from a re-analysis of the deposited data

How the results depend on the processing

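No paired analysis was possible because the recovered libraries carry no replicate number, so no replicate block could be fitted. The edgeR quasi-likelihood test, planned for deposited counts per library, was not run on the recovered reads. Limma voom was used on them instead. The number of members past the test was 2 as deposited, 1 at a threshold of 0.01, 0 with 10% and 0 with 20% added spread between libraries, 0 by the authors' own call with its 2-fold minimum, 4 with limma voom and 4 without its filter, and 3 to 4 with 1 library left out. Adjusting p over only genes from the median value upward gave 3 of the 7 members tested, all lower. Scaling both columns to the same sum kept 2 members but made them 1 higher (Hhip) and 1 lower (Cdon). The wider lists gave 25 as deposited, 16 of the 103 genes left when only genes from the median value upward were tested (25 of 170 before), 7 at 10% and 2 at 20% added spread, 4 by the authors' call, 54 with limma voom, 44 without its filter, and 30 to 42 with 1 library left out. Cdon, at -0.44, lost its call with added spread, which changes only the error (adjusted p 0.29 at 10% and 1 at 20%, from the deposited DESeq2 errors). Smo, at -0.18, lost its call at 0.01 and with added spread (adjusted p 1 from the deposited DESeq2 errors), and at -0.14 with the same sum. Hhip passed at 0.59 with the same sum (adjusted p 0.04 from the deposited DESeq2 errors) and at 0.58 with limma voom (adjusted p 0.000185, and 0.00749 without the filter). Gas1 passed at -0.19 over that upper set of genes (DESeq2 adjusted p 0.0432) and at -0.18 with limma voom (adjusted p 0.00135, and 0.0149 without the filter). Boc and Gli3 changed sign with the same sum, to 0.0073 and 0.0086. With 1 library left out, limma voom log2 fold changes ran from -0.48 to -0.40 for Cdon, -0.20 to -0.16 for Smo, -0.24 to -0.14 for Gas1, 0.41 to 0.74 for Hhip, -0.05 to -0.02 for Boc, -0.19 to -0.12 for Gli2, -0.072 to 0.010 for Gli3 and -0.15 to 0.055 for Ptch1. A genotype left with 1 library was assumed to vary like the other. The causes of these moves were not tested. Few reads limit Gli1, Ihh and Dhh, and 2 libraries per genotype limit every test.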
